A study of Mus musculus with 4 samples.

Results

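The iron carrier Trf, the magnesium transporter Nipal4, the carbonic anhydrase Car14 and the stretch-activated channel Tmem63a were followed in spinal cord of mice in which Sip1 was deleted through Olig1-Cre. They are 4 of the 369 genes that the authors' deposited table names, and each stood for 1 of the 35557 transcript clusters, the units in which the array groups its probes. The 4 were chosen by their symbols in that table, which was itself selected in part on the fold change between the group means of these same arrays. The fold cut-off was 1.45, but more clusters than the 420 listed differed by that much. So a further filter also applied, which was not analysed here. Their difference between the groups is therefore given as a description, without a test. Nipal4 stands in the table under its older name, 9530066K23Rik.

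Total RNA of whole spinal cord at postnatal day 14 was measured on 4 Affymetrix arrays, 2 per group. The Sip1 cKO group had the genotype Sip1c/c;Olig1-Cre, with both copies of Sip1 (now Zeb2, a zinc finger repressor) conditional. The control group was made of littermates with the genotype Sip1c/+;Olig1-Cre, so control animals also carried the Cre and 1 conditional copy. All animals were of a c57.129 mixed background. Olig1-Cre acts in the oligodendrocyte lineage, and which other cells of the cord kept the gene was not measured. The labels call the arrays biological replicates without saying how many animals went into each. Values are on the log2 scale after RMA, the authors' normalization, so a difference of 1 is a doubling. Array medians lay between 6.62 and 6.70, and each group's arrays correlated at 0.993 (Sip1 cKO) or 0.990 (control) across clusters. Zeb2 read 8.61 and 8.66 on the Sip1 cKO arrays, against 10.29 and 10.47 on the control arrays, so each array followed its label. Where these probes lie relative to the deleted part of the gene was not analysed here.

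Oligodendrocytes wrap axons in myelin and are among the most iron-rich cells of the nervous system. Transferrin, the product of Trf, carries ferric iron in body fluids, and in the central nervous system it is made mainly by oligodendrocytes and the choroid plexus. Nipal4 encodes a membrane protein of the NIPA family of magnesium transporters and is best known in humans for a skin barrier disorder. Car14 encodes a carbonic anhydrase anchored in the plasma membrane with its active site outside the cell, where it interconverts carbon dioxide and bicarbonate. Tmem63a encodes a cation channel opened by membrane stretch, and variants of the human gene cause a myelin disorder of infancy.

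All 4 genes were lower in Sip1 cKO cord. The means on the Sip1 cKO arrays came to 4.29% of control for Trf, 7.85% for Nipal4, 14.1% for Tmem63a and 16.3% for Car14. For each gene both Sip1 cKO arrays lay below both control arrays, which also held for 25.1% of all clusters. In limma's fit over all clusters, 4 of the 4 were called lower at an adjusted p under 0.05 (Benjamini-Hochberg). The same fit called 0.858% of all clusters and 55.3% of the named genes lower. The share depended on the clusters counted. Without the run of 6614 lowest identifiers, of which 0 are in the authors' table, a fit called 2.07% lower. That run was set apart after seeing the data, and what its clusters measure was not analysed here. Since the genes had to pass a fold cut-off on these arrays to be in the table, nothing is read from the count of the 4 genes called. It depended on the arrays kept: without control replicate 1 or without control replicate 2, 0 of the 4 were called by limma, though 4 had an unadjusted p under 0.05. Without Sip1 cKO replicate 1, and likewise without Sip1 cKO replicate 2, 2 of them were called, Trf and Tmem63a. The median log2 change was -3.25 over the 4 genes, -1.29 over the named genes and -0.01 over all clusters.

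**Figure D1:**
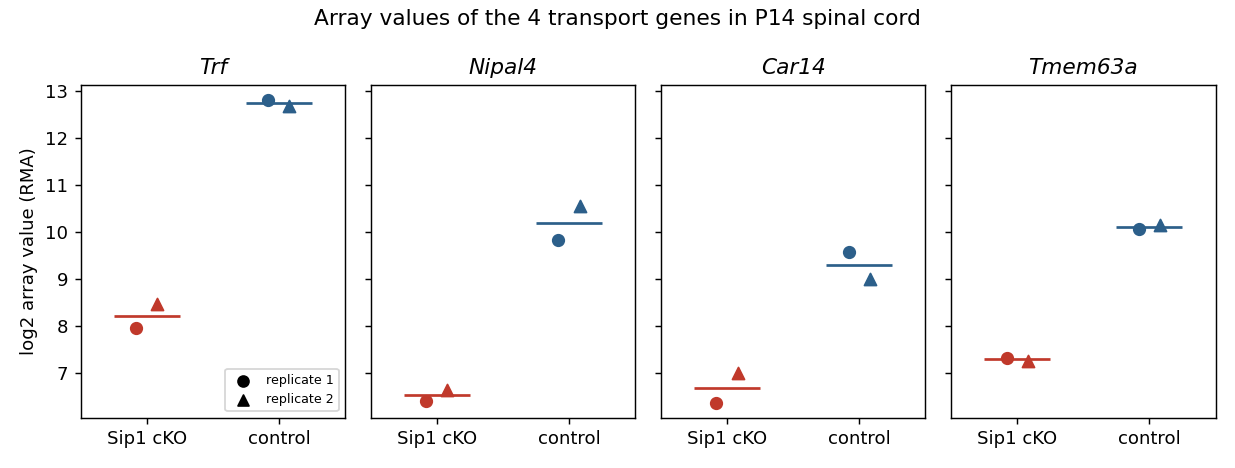
Log2 array values of the 4 genes, with a panel per gene, Sip1 cKO arrays in red left of control arrays in blue, circles for replicate 1, triangles for replicate 2 and a line at each group mean. In every panel the groups are apart, by 4.22 for Trf, 3.19 for Nipal4, 2.02 for Car14 and 2.74 for Tmem63a between the nearest arrays; levels are not comparable between panels because each gene has its own probes.

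Trf, the iron carrier, read 7.94 and 8.46 in the Sip1 cKO arrays, against 12.81 and 12.68 in the control arrays. The control arrays lay close together, while the Sip1 cKO arrays were 0.51 apart with replicate 1 the lower. The group means were 8.20 ± 0.36 in Sip1 cKO and 12.74 ± 0.09 in control (SD, n = 2 each), which made the log2 change -4.54 ± 0.19 (SE of the fit) and the value 23.3-fold lower. Only 9 of the 369 named genes had a lower log2 change, which ranks Trf 10 both among the named genes and among all clusters. In the authors' deposited table the fold was 22.3 and ranked 8 of 420. Of 35 genes on a list of iron handling, which also held the transferrin receptors, ferritins and ferroportin, Trf was the 1 gene named by the table. The others were not analysed here.

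Nipal4, the magnesium transporter, read 6.40 and 6.63 in the Sip1 cKO arrays, against 9.82 and 10.55 in the control arrays. Here it was the control arrays that differed more, by 0.73 with replicate 2 the higher, and the groups were still 3.19 apart at their nearest. Means were 6.52 ± 0.17 in Sip1 cKO and 10.19 ± 0.52 in control (SD, n = 2 each), which made the log2 change -3.67 ± 0.27 (SE of the fit), the value 12.7-fold lower and the rank 19 among all clusters. The authors' deposited table gave 11.2-fold. Of the 20 genes on the list of magnesium transport, 2 were named, and both were called lower. The other was Magt1, a magnesium transporter that is also part of the complex that attaches sugars to new proteins. It read 7.70 and 7.79 in Sip1 cKO, against 8.63 and 8.78 in control, a log2 change of -0.95, so that the change of Nipal4 was the larger of the pair on the log2 scale.

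Car14, the carbonic anhydrase on the cell surface, read 6.36 and 6.98 in the Sip1 cKO arrays, against 9.57 and 9.00 in the control arrays. Both groups were spread, by 0.62 in Sip1 cKO and by 0.57 in control, and the nearest arrays of the groups were 2.02 apart. Means were 6.67 ± 0.44 in Sip1 cKO and 9.29 ± 0.40 in control (SD, n = 2 each), which made the log2 change -2.62 ± 0.29 (SE of the fit) and the value 6.13-fold lower. The authors' deposited table gave 5.61-fold, the smallest of the 4 genes and well inside the cut-off. This was the gene whose call was also lost after a second quantile normalization, where 3 of the 4 genes were called. Car14 was the 1 gene named by the table out of 32 carbonic anhydrases and bicarbonate transporters. The cytosolic enzyme Car2, known from oligodendrocytes, and the sodium bicarbonate cotransporters were not analysed here.

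Tmem63a, the stretch-activated channel, read 7.32 and 7.24 in the Sip1 cKO arrays, against 10.06 and 10.15 in the control arrays. It was the most even of the 4, with arrays 0.07 apart in Sip1 cKO and 0.10 apart in control. Means were 7.28 ± 0.05 in Sip1 cKO and 10.11 ± 0.07 in control (SD, n = 2 each), which made the log2 change -2.82 ± 0.10 (SE of the fit) and the value 7.09-fold lower. The authors' deposited table gave 6.61-fold. Its spread between replicates was below that of most clusters, at percentile 21.5 of the residual SD, while Trf, Nipal4 and Car14 lay at percentiles 86.6, 94.2 and 95.4. Of 32 mechanosensitive and osmosensitive channels on the list, among them its relatives Tmem63b and Tmem63c and the Piezo channels, Tmem63a was the 1 gene named by the table.

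**Figure D2:**
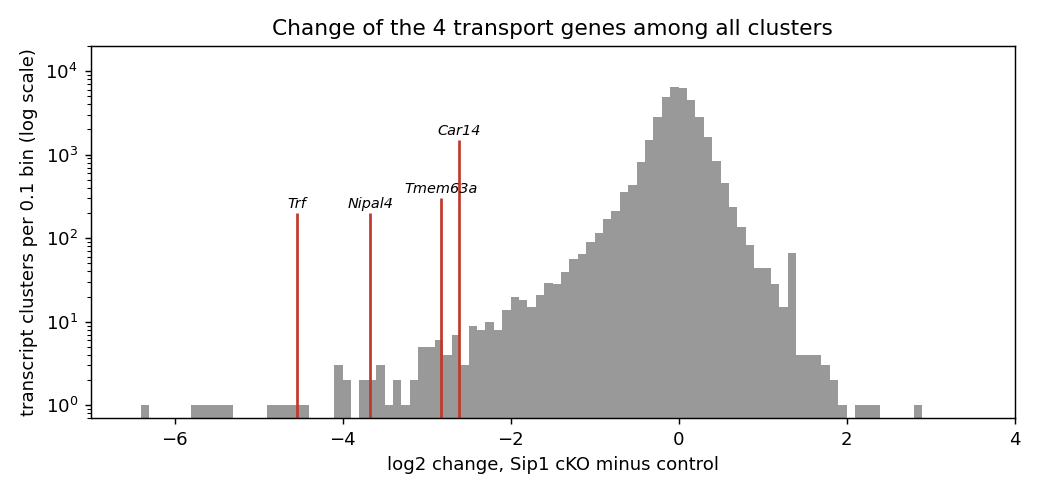
Histogram of the log2 change, Sip1 cKO minus control, over all 35557 clusters in bins of 0.1 with a logarithmic count axis, and red lines at the 4 genes. All 4 lines fall in the sparse lower tail, beyond the lowest 1 percent of clusters, which ends at -1.17.

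In the order of their log2 changes the genes ran Trf, Nipal4, Tmem63a, Car14, from the most to the least lowered. Their control means, 12.74, 10.19, 10.11 and 9.29, fell in the same order. The Sip1 cKO means of Nipal4 (6.52) and Car14 (6.67) lay near the median of all array values, 6.66. Whether background signal limited how far these genes could read lower was not tested, so the sizes below are those of the readings. Trf was lowered by more than Nipal4 on both Sip1 cKO arrays, with a difference of the log2 changes of -0.87 that was -1.01 on replicate 1 and -0.74 on replicate 2. The control arrays lay 0.43 either side of their mean for that difference, and the difference moved with them, to -0.44 without control replicate 1 and -1.30 without control replicate 2. Trf differed from Tmem63a by -1.72 and from Car14 by -1.93, against control deviations of 0.11 and 0.22. Nipal4 differed from Tmem63a by -0.85, with control deviations of 0.32, and by -0.53 without control replicate 2. Nipal4 differed from Car14 by -1.05, with the widest control deviations of the 6 pairs, 0.65. That difference was -1.71 without control replicate 1 and -0.40 without control replicate 2. Car14 and Tmem63a, neighbours in the order, were not apart beyond their spread: their difference of 0.21 was -0.14 on Sip1 cKO replicate 1 and 0.56 on replicate 2, with control deviations of 0.33. These differences come from the contrast that selected the genes and carry no test.

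The 4 genes did not follow the replicates alike. On Sip1 cKO replicate 1, 3 of the 4 read lower than on replicate 2, and Tmem63a read higher. So did 223 of the 369 named genes and 17267 of all 35557 clusters read lower there. Among the control arrays, replicate 1 was the lower for 303 of the 369 named genes, against 16705 of all 35557 clusters. It was also the lower for Nipal4 and Tmem63a, while Trf and Car14 read higher on replicate 1.

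The named markers of mature oligodendrocytes were also lower in Sip1 cKO cord, as were 364 of the 369 named genes. Of 10 such markers 9 were named, and all 9 were called lower, beside 0.858% of all clusters and 55.3% of the named genes, with log2 changes from -6.32 for Mog, a glycoprotein of the outer myelin surface, to -1.97 for Aspa, an enzyme that cleaves acetylaspartate. They entered through the same fold-selected table, so nothing is read from that count. Limma called 0 of all clusters, these markers included, without control replicate 1 (5560 clusters with an unadjusted p under 0.05) or without control replicate 2 (6596 clusters). The markers' control values ran from 9.78 to 13.09. In bulk cord, fewer oligodendrocytes and less RNA per oligodendrocyte cannot be told apart. The mean change of the 9 markers was -5.20 on Sip1 cKO replicate 1 and -4.53 on replicate 2, and 7 of the 9 read lower on replicate 1. Trf lay closest to that mean, above it by 0.40 on replicate 1 and by 0.24 on replicate 2. Nipal4 was above the marker mean by 1.41 and 0.98, Tmem63a by 2.41 and 1.67, and Car14 by 2.27 and 2.23. So the marker mean was lowered by more than each of the 4 genes on both Sip1 cKO arrays. Single markers differed: Aspa was lowered by less than each of the 4 genes. Cnp, at -2.84, was lowered by less than Trf and Nipal4 and by about as much as Tmem63a, at -2.82. Markers of progenitors, astrocytes, microglia, neurons and 4 other classes had no named gene and were not analysed here.

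Among other channels, transporters and gap junction genes of oligodendrocytes, 8 of 47 were named. Of these 7 were called lower, 0 higher and 1 was not called, with a median log2 change of -2.09. They included connexins, the family of gap junction proteins. Gjc3, listed in the table as Gje1, read 7.69 and 8.31 in Sip1 cKO, against a control mean of 12.01 ± 0.01 (SD, n = 2), a log2 change of -4.01 that lay between those of Trf and Nipal4. Gjb1, another connexin, had -2.90, near Tmem63a. Slc45a3, a sugar transporter, changed by -2.25, Slc12a2, the sodium, potassium and chloride cotransporter, by -2.01, and Atp10b, a phospholipid flippase, by -1.95. Kcnk13, a background potassium channel, changed by -1.51. Slco3a1, an organic anion transporter, had -0.80 and was not called. Over the 9 named list genes other than the 4, the median was -2.01, against -3.25 for the 4. All of them were in the table by the same selection, so these counts are set beside the 55.3% of named genes called lower and say nothing particular about transport. Over the 5 lists, the 4 genes included, limma called 12 of 13 named genes. It called 0 without control replicate 1 or without control replicate 2, where 13 had an unadjusted p under 0.05, and it called 3 when Sip1 cKO replicate 1 was left out and 4 when Sip1 cKO replicate 2 was.

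**Figure D3:**
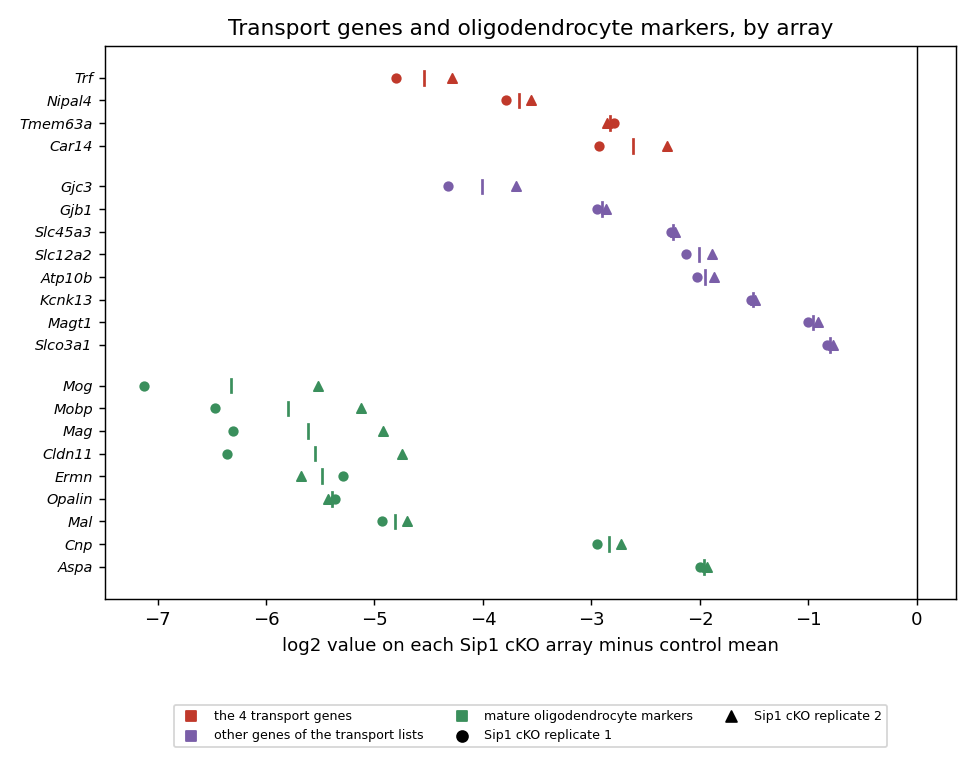
Log2 value on each Sip1 cKO array minus the control mean for the 4 genes (red), 8 other named genes of the transport lists (purple) and 9 mature oligodendrocyte markers (green); circles are replicate 1, triangles replicate 2 and vertical ticks the mean. Every gene lies left of 0; Mog, Mag, Mobp and Cldn11 spread most between the Sip1 cKO arrays, and Tmem63a and Opalin are among those that spread least.

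To see which genes behaved most like each of the 4, their values over the 4 arrays, each centred on its mean, were set against the other 368 named genes by the root mean square difference on the log2 scale. For Trf the nearest were Fa2h, which hydroxylates myelin fatty acids, at 0.12, Enpp6, a choline phosphodiesterase, at 0.13, Mal, a myelin proteolipid, at 0.17, and the protease Klk6 at 0.22. For Nipal4 they were the semaphorin receptor Plxnb3 at 0.17, Tmem88b at 0.18, Ugt8a, which makes galactosylceramide, at 0.19 and the fatty acid elongase Elovl7 at 0.19. Plxnb3 shared the gap between the control arrays, with 9.93 and 10.49.

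Car14 had the least close matches of the 4. Its nearest were Ppp1r14a, an inhibitor of myosin phosphatase, at 0.26, the guanine nucleotide exchange factor Arhgef10 at 0.27, the acyltransferase Agpat4 at 0.29 and the myelin enzyme Cnp at 0.29. Tmem63a had the closest matches, with Prr5l, a partner of the mTOR complex, at 0.07, the semaphorin Sema4d at 0.08, the elongase Elovl1 at 0.09 and the ceramide synthase Cers2 at 0.09. The median difference to all other named genes was 1.65 for Trf, 1.22 for Nipal4 and 0.80 for both Car14 and Tmem63a. None of the 4 was among the 4 nearest genes of another: the closest pair was Car14 and Tmem63a at 0.36, where Tmem63a ranked 16 for Car14 and Car14 ranked 38 for Tmem63a. With 4 arrays in 2 groups this likeness rests mostly on the size of the change.

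**Figure D4:**
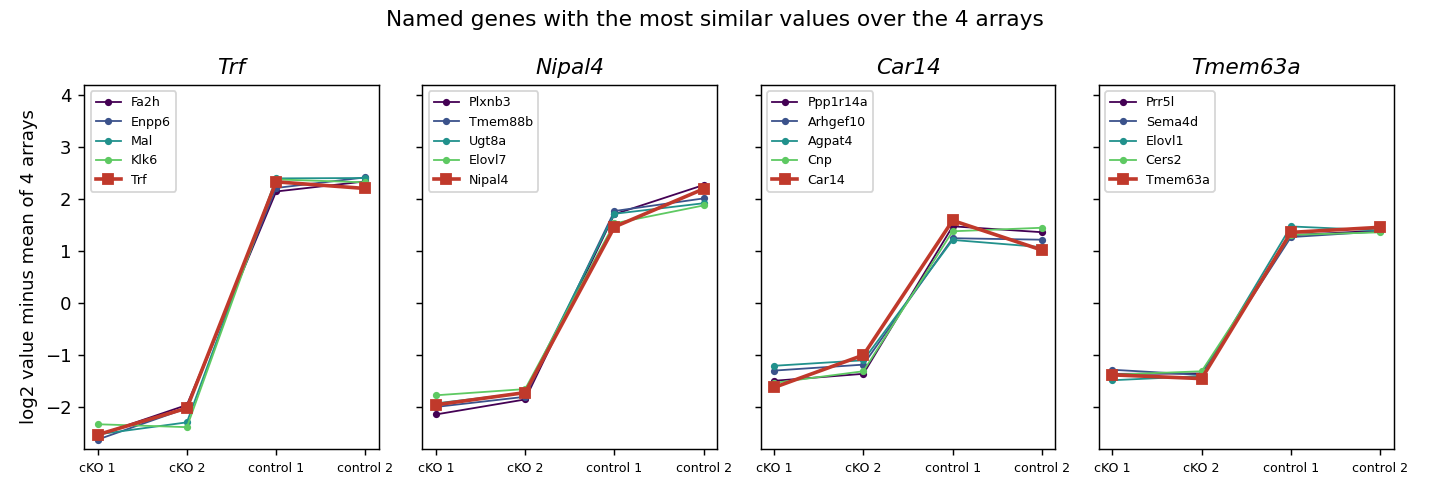
Log2 values minus the mean of the 4 arrays, for each of the 4 genes (thick red line) and its 4 nearest named genes (thin lines), with Sip1 cKO arrays left of control arrays. The lines of the Tmem63a panel nearly coincide, while Car14 lies above its nearest genes on Sip1 cKO replicate 2 and control replicate 1 and below them on the other two arrays.

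Because the deleted gene encodes a DNA-binding repressor, promoter sequence is shown where letters of a binding site fixed for the search were present. Nipal4, Car14 and Tmem63a matched the promoter windows of RefSeq (GRCm38.p6), of which the 250 bases before the start were searched on both strands. Trf had no such window and was not searched. The letters were CACCT, the core bound by Sip1, with its longer form CACCTG, which overlaps it, then ACAAAG or ACAATG for Sox factors, and CTGGCAC or CTGGTAC for Myrf, the activator of myelin genes. Nipal4 held CTGGCAC at 2 places, beginning 200 and 175 bases before the start, and none of the others. The whole window, at chr11:46166360-46166609 on the minus strand, is printed 5′ to 3′ with these matches in capitals. Of 32851 windows, 1376 (4.19%) hold these letters at all and 47 (0.143%) hold them more than once. These shares do not allow for base content: the Nipal4 window was 71.6% G or C, against a median of 52.4% over all windows.
Nipal4: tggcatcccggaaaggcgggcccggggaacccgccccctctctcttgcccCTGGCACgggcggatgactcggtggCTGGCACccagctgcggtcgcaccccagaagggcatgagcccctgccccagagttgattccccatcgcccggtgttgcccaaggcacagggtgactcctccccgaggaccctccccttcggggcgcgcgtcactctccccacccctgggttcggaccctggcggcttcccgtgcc

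Car14 held CACCT at 1 place, on the strand opposite to the gene, and Tmem63a held ACAAAG at 1 place, also on the opposite strand. The 30 bases around each are printed on the gene's strand, where the capitals mark the reverse complement of the letters searched. They lie at chr3:95904871-95904900 on the minus strand for Car14 and at chr1:180942455-180942484 on the plus strand for Tmem63a.
Car14: tcctgggagggagAGGTGcgaaacccccct
Tmem63a: gccggagtttcaCTTTGTaacttttaagtg

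Both are common strings, present in 46.0% (CACCT) and 16.5% (ACAAAG) of all windows. CACCTG was present in 17.2%, ACAATG in 10.7% and CTGGTAC in 1.83% of windows, and in none of these 3 genes' windows. So no letters of the search were shared by the 3 genes, although all 3 were lower in Sip1 cKO. A match says only that the letters are there, and its absence only that they are not in this window.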

How the data were processed

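Total RNA of 2 Sip1 cKO and 2 control spinal cord samples was hybridised to Affymetrix mouse gene arrays; per the file headers the type was MoGene-1_0-st-v1. The array values that the authors deposited came from RMA according to the submitters' processing notes and were read as log2 from their range, 1.71 to 14.5. RMA evens out the arrays, so a shift shared by most transcripts is not seen. The deposited table of the authors holds 420 clusters with fold change as a ratio and group means as linear intensity. Per the file headers it keeps folds of at least 1.45, but not all clusters with such a fold are in it. Its "up" means higher in control (398 clusters), whereas signs here are Sip1 cKO minus control.

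Genes were named through clusters of that table with 1 symbol (375), updated through RefSeq names. Where a gene had several clusters, the one with the highest mean was used. Differences were fitted with limma 3.58.1 in R 4.3.3 over all 35557 clusters, the group being the single term. The fit was also run on simulated data with independent arrays and added changes of known size. That run had to return the sign and mean size of those changes, and is no check of the calls made here. The design allowed no exact permutation p under 0.333. The 4 genes, the 5 gene lists, the marker lists and the motifs were chosen with earlier results of these data known. Named genes were the 4, the list genes in the table, the 4 nearest genes of each, Zeb2 and Mog; values of 1 list gene and 1 marker are not reported here. The number of arrays limits the precision. The p-values set the group difference against the spread between these arrays, which limma moderates with that of all clusters. How that spread relates to variation between animals is not known.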

Additional observations from a re-analysis of the deposited data

How the results depend on the processing

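The log2 changes of Trf, Nipal4, Car14 and Tmem63a were negative under all settings. The filters, eBayes options, array weights and replicate block left each change as it was, so they are no check on it. Leaving out 1 array cannot shift a change by more than the replicate SD, nor turn its sign where the groups do not overlap. Among the other normalizations and the authors' deposited group means, only the change of Tmem63a moved by more than its small replicate SD, to -2.72 with those group means. Over fits without 1 array the change ranged from -4.80 to -4.29 for Trf, -4.04 to -3.30 for Nipal4, -2.93 to -2.30 for Car14 and -2.87 to -2.78 for Tmem63a. The difference between Car14 and Tmem63a changed sign among these fits (-0.14 to 0.56), and the other 5 pairs kept theirs. Without 1 array, limma called 0 to 2 of the 4 genes, 0 to 4 of the list genes and 0 to 60 of all clusters, while all 4 genes and 3290 to 6596 clusters had an unadjusted p under 0.05, the lone array being assumed to vary like the other group. Of all clusters 383 were called, and 954 with the filter on dim clusters, 603 with an eBayes trend, 818 without the run of lowest identifiers (chosen after seeing the data), 712 at an adjusted p under 0.1 and 5853 at an unadjusted p under 0.05; the cause was not tested. The labels do not say whether same-numbered arrays of the 2 groups were matched. Their deviations correlated at 0.0764 across clusters, which cannot settle it with 2 arrays a group. With the replicate block 111 clusters and 3 of the 4 genes were called, without Car14. The mean of several clusters could not be tried, since only 1 cluster was named for each of the 4 genes.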
